A study of Mus musculus with 292 samples.

Results

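The cytochrome P450 and conjugation enzymes are the genes by which cells oxidise and then tag foreign chemicals, steroids, retinoids and fatty acids. The set held every named gene whose symbol begins with Cyp and a digit, Gsta, Gstm, Gstp, Gstt, Gsto, Gstz, Mgst, Sult, Ugt1, Ugt2 or Aldh, with the sterol synthesis gene Cyp51 and the folate gene Aldh1l1 left out. By that rule 109 genes of 11640 named genes were members. They comprised 38 genes of the Cyp1 to Cyp3 families, 13 Cyp4 genes, 13 Cyp genes of families 5 and above, 14 cytosolic glutathione transferases, 2 microsomal glutathione transferases, 12 sulfotransferases, 5 glucuronosyltransferases and 12 aldehyde dehydrogenases. A gene with several probes was represented by the probe of largest SD across mice, which applied to 17 members.

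Brain RNA came from 292 F2 mice of both sexes, bred from C57BL/6J and C3H/HeJ in both directions of the cross. All mice formed 1 group and carried no label for sex, cross direction or genotype. Chow with 4% fat was fed until week 8. Western diet (42% fat, 0.15% cholesterol) followed for 12 weeks, so that the animals were 20 weeks old at death, and food was withheld for the last 12 h. Each brain, dyed with Cy3, was hybridised once against a Cy5-dyed pool to which every animal had contributed an equal share of RNA. The values were read as log10 ratios of mouse to pool. The base and the direction are likely, since the titles name each mouse versus the pool and the values stop at -2 and 2, but neither is stated, and every fold and every sign of a difference below rests on them. A ratio carries no expression level, so it could not be seen whether a gene stood above background, levels could not be ranked between genes, and the tissue could not be checked against its markers. In whole tissue, more cells of a type and more RNA per cell cannot be told apart.

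P450 enzymes insert oxygen into their substrates and draw electrons from reductases. Glutathione transferases, sulfotransferases and glucuronosyltransferases attach glutathione, sulfate or glucuronic acid to the products, and aldehyde dehydrogenases oxidise reactive aldehydes to acids. In brain the P450 enzymes are best known for sterol and retinoid turnover and the glutathione transferases for defence in glia, while many drug-handling members are known mainly from liver.

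The arrays fell into 3 sets, called batches here, which the labels do not name and which were recognised only by the probes missing throughout. Whether they are technical is not stated. Batch C held 141 arrays (mouse numbers 213 to 362), batch B 77 arrays (54 to 212) and batch A 74 arrays (51 to 196). Batch B also has its own wording of the sample description. The Y-linked gene Eif2s3y averaged -0.748 ± 0.838 in batch C, 0.253 ± 0.22 in batch B and -1.6 ± 0.266 in batch A (log10 ratio, SD), so differences between batches B and A went along with a difference in Y-linked RNA. Correlations over mice were therefore taken after centring each gene within batch. Centring leaves variation within a batch in place, and Eif2s3y had an SD of 0.838 within batch C. The part of sex in the correlations was not tested. Between any 2 arrays the correlation across probes lay between -0.638 and 0.795 (median 0.109), with 3.39% of the values under -0.3. In 3 arrays, all of batch C, the SD over probes was more than 2 times the median array's, and results that rest on them are given with and without them.

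Promoter sequences of 6 members are shown for the relations described below: Cyp4f14 and Cyp4f15, both on chromosome 17, which varied together, Cyp2f2, which followed pituitary genes, and Cyp2a5, Gstp3 and Sult5a1, which varied together from different chromosomes. Each runs 5′ to 3′ on the gene's strand from 250 bases before to 50 bases after the RefSeq start (build GRCm38.p6). They lie at chr17:32917307-32917606 (minus strand) for Cyp4f14, the outermost of 4 listed starts, chr17:32685409-32685708 (plus) for Cyp4f15, chr7:27119705-27120004 (plus) for Cyp2f2, chr7:26835089-26835388 (plus) for Cyp2a5, chr19:4059398-4059697 (minus) for Gstp3 and chr8:123158231-123158530 (minus) for Sult5a1. Capitals mark matches on either strand to the CCAAT box (CCAAT), the xenobiotic response element core (GCGTG), the antioxidant response element (TGACNNNGC), the Pit-1 element (TATNCAT) and the TATA box (TATAAA).
Cyp4f14: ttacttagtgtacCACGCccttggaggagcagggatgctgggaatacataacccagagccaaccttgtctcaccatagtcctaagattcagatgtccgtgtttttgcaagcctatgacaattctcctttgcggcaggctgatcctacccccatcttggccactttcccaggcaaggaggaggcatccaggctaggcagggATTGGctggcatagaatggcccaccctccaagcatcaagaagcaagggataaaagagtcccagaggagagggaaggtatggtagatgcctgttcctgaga
Cyp4f15: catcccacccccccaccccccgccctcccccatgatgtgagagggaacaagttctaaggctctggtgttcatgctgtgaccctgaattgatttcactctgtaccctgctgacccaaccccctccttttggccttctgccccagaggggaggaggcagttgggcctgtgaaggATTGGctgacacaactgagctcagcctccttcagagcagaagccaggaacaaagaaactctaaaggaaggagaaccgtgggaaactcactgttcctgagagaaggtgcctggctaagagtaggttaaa
Cyp2f2: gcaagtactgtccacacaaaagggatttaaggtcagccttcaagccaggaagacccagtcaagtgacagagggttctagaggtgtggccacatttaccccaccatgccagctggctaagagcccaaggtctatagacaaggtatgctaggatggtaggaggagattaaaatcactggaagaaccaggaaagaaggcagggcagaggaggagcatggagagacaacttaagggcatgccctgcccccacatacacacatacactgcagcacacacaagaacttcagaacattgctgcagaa
Cyp2a5: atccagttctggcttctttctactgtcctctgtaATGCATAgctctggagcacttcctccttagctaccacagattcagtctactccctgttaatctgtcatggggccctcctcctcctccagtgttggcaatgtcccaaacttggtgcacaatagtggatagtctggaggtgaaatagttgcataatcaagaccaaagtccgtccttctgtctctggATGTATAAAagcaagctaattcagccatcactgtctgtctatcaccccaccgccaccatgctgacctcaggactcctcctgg
Gstp3: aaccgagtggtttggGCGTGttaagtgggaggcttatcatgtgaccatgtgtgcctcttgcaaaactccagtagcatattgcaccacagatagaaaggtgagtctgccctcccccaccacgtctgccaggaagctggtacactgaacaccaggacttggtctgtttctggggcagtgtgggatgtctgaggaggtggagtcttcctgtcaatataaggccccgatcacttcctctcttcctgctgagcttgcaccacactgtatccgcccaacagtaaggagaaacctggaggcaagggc
Sult5a1: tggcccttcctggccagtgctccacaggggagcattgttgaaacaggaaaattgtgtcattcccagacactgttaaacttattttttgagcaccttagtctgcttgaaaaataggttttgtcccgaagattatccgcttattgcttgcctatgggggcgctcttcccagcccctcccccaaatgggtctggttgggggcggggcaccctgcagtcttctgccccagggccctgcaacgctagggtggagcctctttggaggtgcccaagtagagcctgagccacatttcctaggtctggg

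A CCAAT match stood 50 bases before the start of Cyp4f14 and 78 bases before that of Cyp4f15, in the same orientation. Their longest identical run was 12 bases (CTGTTCCTGAGA), from transcribed base 39 of Cyp4f14 and transcribed base 11 of Cyp4f15. The xenobiotic core was matched once in Cyp4f14 and once in Gstp3, while Cyp2a5 held 2 Pit-1 matches, the second overlapping its TATA box. Among all 32851 listed promoters, 37.4% held the CCAAT box, 32.4% the xenobiotic core, 13.6% the TATA box, 12.4% the antioxidant element and 8.84% the Pit-1 element. Of the 84 members with a listed promoter, 42 held the CCAAT box, 22 the xenobiotic core, 27 the TATA box, 8 the antioxidant element and 7 the Pit-1 element. These matches describe letters in the windows and not binding.

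Across mice the enzymes varied about as much as other genes. The median SD of a member was 0.0517 on the log10 scale, against 0.0512 over all named genes, and 55 of the 109 members lay above the median of all named genes. The microsomal transferases and the sulfotransferases had the highest family medians (0.067 and 0.0609), and the glucuronosyltransferases the lowest (0.0444). The plot of SD by family shows a few members far above the rest in the Cyp1 to Cyp3, sulfotransferase and Cyp families 5 and above groups.

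**Figure D1:**
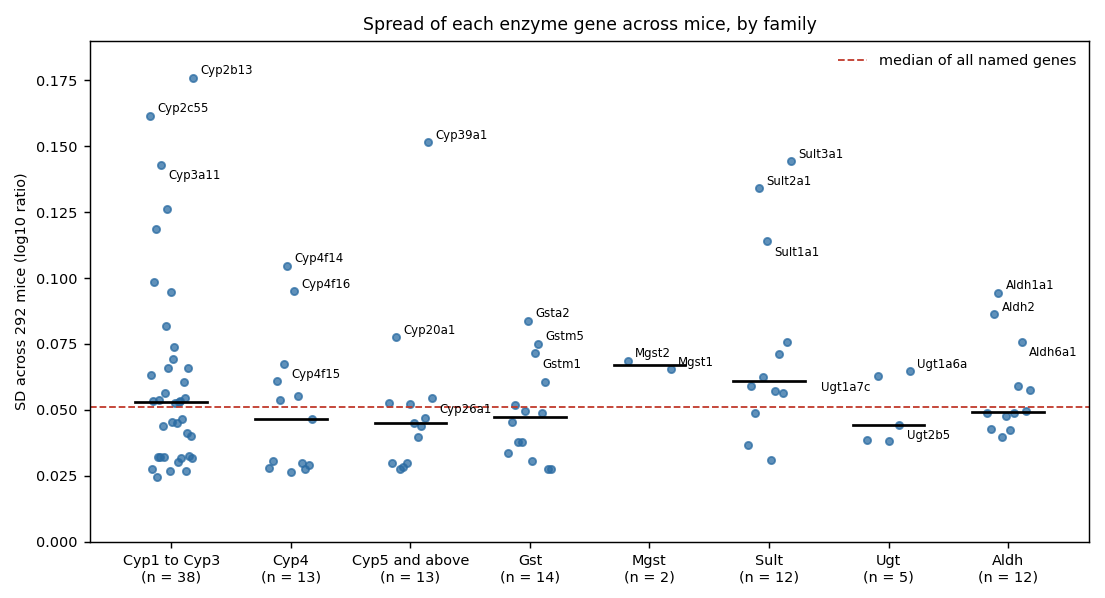
SD of each member's log10 ratio across 292 mice (vertical axis) by enzyme family (horizontal axis). Points are genes, black bars family medians and the dashed line the median of all named genes, 0.0512; Cyp2b13, Cyp2c55, Cyp39a1 and Sult3a1 stand highest.

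Of the P450 genes known from brain, Cyp46a1 and Cyp4x1 varied little and Cyp39a1 much. Cyp46a1, the cholesterol hydroxylase by which neurons export cholesterol, ran from -0.0817 through a median of -0.00743 to 0.147, and its SD of 0.0297 exceeded that of only 10.1% of named genes. Cyp4x1, an orphan enzyme known for its brain expression, had an SD of 0.0289, above that of 8.88% of named genes. Cyp7b1, which hydroxylates oxysterols and neurosteroids, had an SD of 0.0449, and Cyp26b1, which clears retinoic acid, 0.0437, both somewhat under the median of all named genes. The SD of Cyp26b1 was 0.036 without the 3 widest arrays.

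Cyp39a1, which acts on the oxysterol that Cyp46a1 makes, was among the most variable members. Its log10 ratio ran from -0.406 through 0.0872 to 0.431 in batch C, from -0.376 through -0.00676 to 0.318 in batch B and from -0.345 through 0.0268 to 0.257 in batch A. The batches overlapped over most of their range, and between the 5th and the 95th percentile of mice its level differed 2.88-fold. Sult3a1, a sulfotransferase, had a nearly equal span of 2.69-fold, with values from -0.347 through -0.0315 to 0.725. Sult1a1, which sulfates phenols, spanned 2.44-fold, Cyp2j13, of a subfamily of arachidonic acid epoxygenases, 2.39-fold, Cyp4f14, of a subfamily that hydroxylates leukotrienes and fatty acids, 2.2-fold, and the retinal dehydrogenase Aldh1a1 2.06-fold.

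Among the conjugating enzymes Gsta2 had the largest SD of the cytosolic glutathione transferases (0.0838, a span of 1.85-fold), Mgst2 of the microsomal ones (0.0686, 1.65-fold) and Ugt1a6a, which glucuronidates phenols, of the glucuronosyltransferases (0.0646, 1.56-fold). Gsta4, which conjugates hydroxynonenal, a product of lipid peroxidation, ran from -0.132 through 0.0227 to 0.242, and Gstp1 from -0.161 through -0.0224 to 0.171. Aldh2, which clears acetaldehyde in mitochondria, had a wider span of 1.95-fold. Cyp2e1 spanned 1.36-fold. Cyp3a11, a main drug-metabolising P450 of mouse liver, had an SD of 0.143 and reached 1.18, Cyp2j11 had an SD of 0.126 and Cyp2r1, a vitamin D hydroxylase, one of 0.0947.

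For other members the SD rested in part on single mice. Cyp2b13 reached the lower limit of -2 in 1 mouse of batch C and 1.07 in a mouse of batch A, with a median over all mice of -0.00326. Cyp2c55 reached the upper limit of 2 on 1 of the 3 widest arrays, and its SD over all mice was 0.162, or 0.109 without those arrays, where it still reached 1.26. The SD of Sult2a1, a hydroxysteroid sulfotransferase, was 0.134 over all arrays and 0.0815 without the 3 widest, which hold its lowest value of -1.7. Cyp2b23 stood at 1.45 in 1 mouse outside those arrays, and its 5th and 95th percentiles lay only 1.39-fold apart.

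Several members spread more in batch C than in the other batches. The ratio of the SD in batch C to the root mean square of the SDs in batches A and B was at least 1.5 for 9 of the 109 members (8.26%), against 4.57% of named genes. It was 3.43 for Cyp2c55, 3.12 for Cyp2b23, 2.75 for Sult2a1, 2.1 for Sult1b1 and 2.03 for Cyp2d9. Without the 3 widest arrays, 3 members (2.75%) passed that ratio, against 2.14% of named genes: Aldh1a3, Cyp2b23 and Cyp2c55. In the other direction, Gstm1, a main mu-class glutathione transferase, had an SD of 0.0396 in batch C, 0.0825 in batch B and 0.0826 in batch A.

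The mean of no member lay 1.2-fold or more from the pool. Every animal had given an equal share of RNA to that pool, so means near 0 were largely set by the design. With limma and Benjamini-Hochberg adjustment over 23549 probes, 0 of 109 members passed an adjusted p under 0.05 with that fold, against a background of 0.586%. At an unadjusted p under 0.05 and any fold, 67 members differed from 0. The share of all probes under that looser rule is not given here, so the count was not compared. Every mouse carried the same dye, so such small offsets cannot be told apart from a dye effect. Mean ratios ran from 0.927-fold for Aldh18a1, the first enzyme of proline synthesis, to 1.14-fold for Sult1a1.

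Between batches B and A, 2 members differed. Gsta2, an alpha-class glutathione transferase, was lower in batch B and Sult1a1 was higher. They were 2 of 109 members called at an adjusted p under 0.05 and at least 1.1-fold in limma, against a background of 0.467%. At an unadjusted p under 0.05, 12 members differed, a count with no share of all probes at that limit to set beside it.

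Gsta2 ran from -0.18 through -0.036 to 0.224 in batch B and from -0.139 through 0.00988 to 0.224 in batch A. The batches overlapped over nearly their whole range, with the lower median in batch B. The mean was -0.0299 ± 0.0734 in batch B and 0.0236 ± 0.0784 in batch A (SD, n = 77 and 74), a log10 difference of -0.0535 ± 0.0132 (SE, limma adjusted p = 0.00901). Sult1a1 averaged 0.0191 ± 0.0913 in batch B and -0.0342 ± 0.1 in batch A, a difference of 0.0533 ± 0.0149 (SE, limma adjusted p = 0.0364) or 1.13-fold. The Y-linked Eif2s3y differed between the same batches by 1.85 and Kdm5d by 1.33 on the log10 scale, and the pituitary hormone gene Prl by -0.508. The part of sex or of pituitary tissue in either member's difference was not tested.

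Batch C differed from batches A and B in 20 members, of which 17 were higher and 3 lower. These made up 18.3% of the members, under the background of 23.8% of all probes called by the same limma rule (adjusted p under 0.05 and at least 1.1-fold, batch C minus the mean of batches A and B). The median difference was 5.4e-05 over the members and -0.00193 over all probes. The members were called no more often than other probes.

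The glutathione transferases called were all on the higher side: Gstm5 (1.31-fold), Gsta3 (1.19-fold), Gstm1 (1.14-fold), Mgst1 (1.12-fold), a microsomal transferase with peroxidase activity, and Gstz1 (1.11-fold), an enzyme of tyrosine breakdown. Gstm5 ran from -0.00204 through 0.113 to 0.24 in batch C, from -0.108 through 0.00108 to 0.147 in batch B and from -0.143 through -0.00468 to 0.137 in batch A. Nearly all mice of batch C lay above the medians of the other batches, although the ranges overlapped. The difference was 0.116 ± 0.00557 (SE, limma adjusted p = 2.66e-57).

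Sult1a1 showed the largest difference of the members. It averaged 0.122 ± 0.0885 in batch C, 0.0191 ± 0.0913 in batch B and -0.0342 ± 0.1 in batch A (SD), a difference of 0.13 ± 0.0108 (SE, limma adjusted p = 2.84e-26), or 1.35-fold. The batches overlapped. The other sulfotransferase called, Sult4a1, a brain-enriched form without a settled substrate, was lower, with -0.0567 ± 0.0336 in batch C, -0.000275 ± 0.0602 in batch B and 0.00173 ± 0.059 in batch A.

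Aldehyde dehydrogenases were called in both directions. Aldh1a1 averaged 0.1005 ± 0.0532 in batch C, -0.0198 ± 0.0999 in batch B and 0.000549 ± 0.0853 in batch A, a difference of 0.11 ± 0.00891 (SE, limma adjusted p = 2.34e-27). Aldh6a1, which degrades valine and thymine, was higher by 1.16-fold, and Aldh1a2, another retinal dehydrogenase, by 1.13-fold. Aldh18a1 was lower, at 0.857-fold.

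Among P450 genes, Cyp39a1 (1.23-fold), the orphan Cyp20a1 (1.19-fold) and Cyp1b1 (1.15-fold), which oxidises estradiol and retinoids, were higher, as were Cyp2j6, Cyp2j12, Cyp2j13, Cyp2f2 and Cyp2c38. Cyp2c54 was lower, at 0.903-fold. Cyp20a1 ran from -0.123 through 0.0685 to 0.175 in batch C, from -0.238 through 0.0175 to 0.219 in batch B and from -0.258 through -0.0227 to 0.12 in batch A. Batch C was narrower and stood higher.

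**Figure D2:**
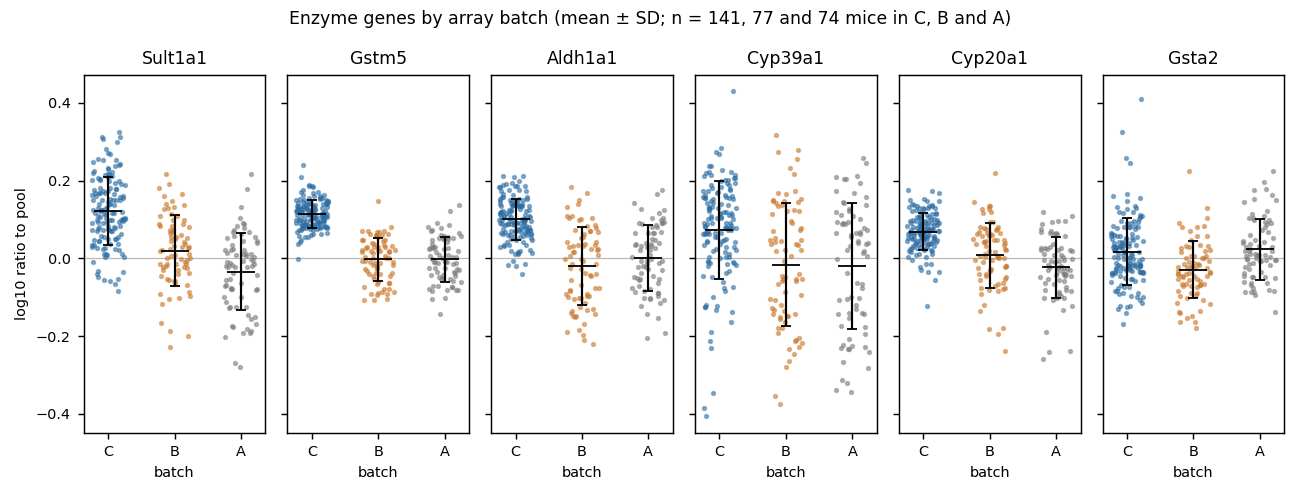
Log10 ratio to the pool (vertical axis) of 6 members in the mice of array batches C, B and A (horizontal axis). Points are mice and bars the mean ± SD; the means of Sult1a1, Gstm5, Aldh1a1, Cyp39a1 and Cyp20a1 are highest in batch C, and that of Gsta2 is lowest in batch B.

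Cell type marker scores differed between the same batches. The neuron score, over 4 of 9 listed markers, averaged 0.302 in batch C, -0.315 in batch B and -0.248 in batch A, and the oligodendrocyte score, over 10 of 13, averaged -0.305, 0.229 and 0.344 in the same order. Their part in the batch differences was not tested. Mouse number and batch C cannot be told apart, because batch C holds all the higher numbers.

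Other genes of the pathway were called in both directions. The background for batch C was 23.8% of all probes, and these lists are short. Of 13 measured genes listed for the xenobiotic receptor pathways and the Nrf2 axis, 1 was higher in batch C (Tiparp) and 3 lower (Nr1h3, Keap1 and Mafg). Of 19 other detoxification enzymes, 4 were higher (Nqo1, Hmox1, Gclc and Fmo5) and 1 lower (Gclm). Of 2 measured electron donors, Fdx1, which serves mitochondrial P450 enzymes, was lower at 0.829-fold. Between batches B and A, 0 genes of these lists were called by limma (background 0.467%).

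Over mouse number within batches, Cyp39a1 fell and Sult1a1 rose. With batch in the limma model, 17 of 109 members had a slope at an adjusted p under 0.05, 7 upward and 10 downward, against a background of 18% of probes. Members were thus called about as often as other genes. Mouse number is a label of unknown meaning, and neither birth order nor processing order is stated.

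The log10 ratio of Cyp39a1 changed by -0.132 ± 0.0172 per 100 in mouse number (SE, limma adjusted p = 5.37e-11), or 0.737-fold. Within single batches its slope was -0.0653 in batch C, -0.179 in batch B and -0.198 in batch A. Hmox1, the oxidative stress enzyme that breaks down haem and the gene most correlated with Cyp39a1, had a slope of -0.194 ± 0.0265. Sult1a1 rose by 0.0627 ± 0.0114 (limma adjusted p = 4.8e-06), with slopes of 0.0195 in batch C, 0.0697 in batch B and 0.141 in batch A.

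Aldh1a1 had a slope of -0.0424 ± 0.00964 with negative values in each batch, and Sult2b1, the cholesterol sulfotransferase, one of 0.0299 ± 0.00608 with positive values in each. Gstm1 had a joint slope of -0.0264 ± 0.00839 (limma adjusted p = 0.0153), which was not the same in all batches: 0.021 in batch C, -0.0614 in batch B and -0.0694 in batch A. Without the batch term the slopes of Cyp39a1, Aldh1a1 and Gstm1 were positive.

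A few members fell into discrete levels, at the rate of other genes. Mixtures of normal distributions separated 8 of 109 members (7.34%) into 2 levels, against a background of 6.57% of probes. The smaller level held 5.48% to 14% of mice in 7 of them. In Aldh1a1 it held 21.9% at a mean of -0.091, and the larger level held 78.1% at 0.0841. Aldh1a1 was not called on values centred within batch or in any single batch, so its levels were seen only with the batches pooled. Cyp2f2, a P450 known for activating naphthalene in mouse airway, had 11.6% of mice at 0.179 and 88.4% at -0.00463, 1.53-fold apart. It was called in 8 of 9 refits under other settings and not with unequal variances, where none of the 8 members was called. For members with a single probe, among them Cyp2f2, the refit on the mean over probes used the same values. That call was therefore fixed in advance. No other member was called in more than 5. The rest were Aldh1a3, Cyp2a5, Gstp3, Sult5a1, Cyp3a41a and Cyp2c54.

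Cyp2f2 followed genes of the anterior pituitary. It was the 1 member of 109 called with the anterior pituitary score in limma (adjusted p under 0.05 and a partial r of at least 0.3 in size, with batch in the model), against a background of 0.327%. The score averaged the standardised values of 6 of 8 listed hormone and receptor genes.

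Cyp2f2 ran from -0.0835 through 0.0261 to 0.36 in batch C, from -0.117 through -0.0349 to 0.222 in batch B and from -0.113 through -0.0291 to 0.327 in batch A. Most mice stood near the median, with a tail of high values in every batch. The partial r with the score was 0.789 (limma adjusted p = 6.42e-60), with Spearman's rho 0.67, a two-sided permutation p of 1e-05 for each (the smallest that 100000 permutations can give) and r 0.78 without the 2 mice of most extreme score. Within batches r was 0.803 in C, 0.794 in B and 0.795 in A, and it was 0.798 with the first principal component of the other genes removed. The 3 named genes outside the set most correlated with Cyp2f2 over the 292 mice were Epcam, an epithelial adhesion gene (r = 0.839), Pitx1, a pituitary transcription factor (0.791), and Esrp1, an epithelial splicing factor (0.791), and its r with growth hormone, Gh, was 0.771. Gh itself had an SD of 0.656 and Prl of 0.852 on the log10 scale. How far the amount of pituitary tissue left on a brain sets the level of Cyp2f2 was not tested. The Cyp2f2 promoter printed above held none of the 5 motifs.

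**Figure D3:**
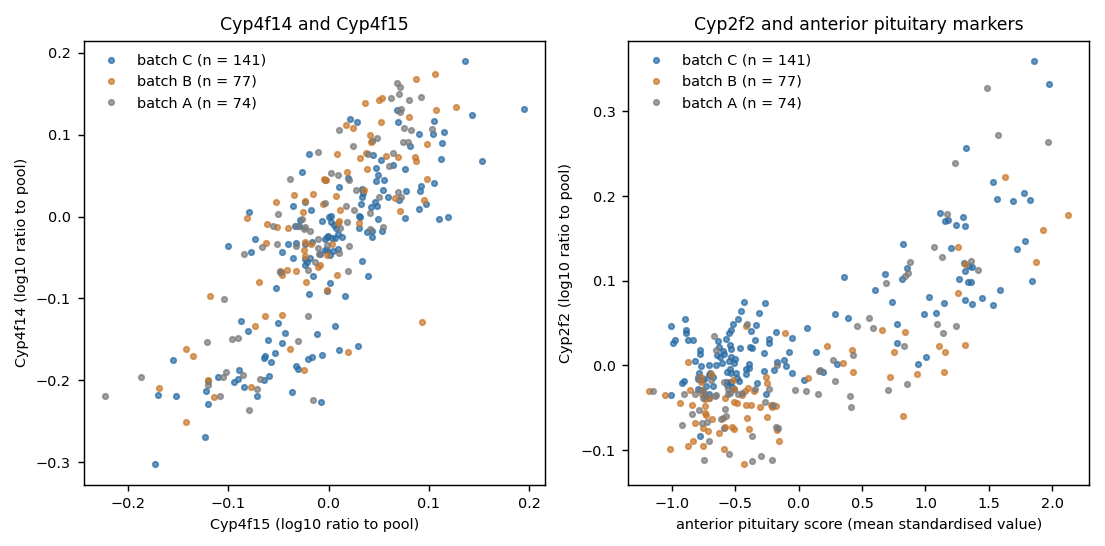
Left, log10 ratio of Cyp4f14 (vertical axis) against that of Cyp4f15 (horizontal axis); right, log10 ratio of Cyp2f2 against the anterior pituitary score, a mean of standardised values. Points are the 292 mice by batch; the relation runs the same way in each batch, and no mouse with a score below 0 has a Cyp2f2 value above 0.0751.

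For most lists the markers themselves moved together only weakly, so a score is a mean over its list and not a measure of that cell type. The median r between markers of a list was 0.632 for anterior pituitary and 0.605 for red cells. It was 0.178 for microglia, 0.165 for oligodendrocytes, 0.159 for mural cells, 0.138 for neurons and 0.11 for leptomeninges. It was 0.0973 for liver, 0.0588 for choroid plexus, 0.0317 for ependyma, 0.025 for astrocytes and 0.0171 for endothelium, and below 0 for dopamine neurons (-0.03) and olfactory epithelium (-0.06).

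With the leptomeningeal and choroid plexus scores few members were called, as were few of all probes. With the leptomeningeal score, over 10 of 11 markers of the brain's covering membranes, 2 of 109 members were called (background 3.39%). Aldh1a2, whose retinoic acid product is known from the meninges, had a partial r of 0.397 (rho 0.411, permutation p = 1e-05), with 0.289 in batch C, 0.386 in B and 0.61 in A. Its partial r with the mural score was 0.498. Cyp2b19 had a partial r of -0.328. With the choroid plexus score, over 9 of 11 markers, 3 were called (background 5.83%): the epoxygenase Cyp2j6 (0.388), Cyp4x1 (-0.349) and Sult4a1 (-0.331). Their r values kept their sign in each batch.

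With the olfactory epithelium score only Gsta3 was called (partial r 0.375, background 1.49%), with 0.367 in batch C, 0.298 in B and 0.501 in A. With the red cell score limma called 0 members (background 0.132%). At an unadjusted p under 0.05 there were 18, but the background is for the stricter rule and was not taken at that limit. With the liver score 6 were called, all positive (background 4.62%). Most calls over all probes were positive as well, 857 against 231 negative. With the first principal component in the model 2 members were called (background 1.88%). The leading members for the liver score were Cyp2e1 (0.382), the ethanol-oxidising P450, Cyp3a41a (0.344) and Cyp2a5 (0.343). Within batches the r of Cyp2e1 with the liver score was 0.548 in C, 0.265 in B and 0.221 in A. That of Cyp3a41a was 0.498 in C, 0.0769 in B and 0.401 in A.

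Glial and neuronal scores took in many members, at shares below those of all probes for astrocytes, oligodendrocytes, microglia and neurons and slightly above for dopamine neurons. With the astrocyte score, over 10 of 13 markers, 20 members were called, 11 positive and 9 negative (18.3%, background 23.3%). Aldh9a1, an aminobutyraldehyde dehydrogenase, led with 0.666 (rho 0.619), followed by Aldh6a1 (0.553) and Mgst1 (0.521). Aldh9a1 kept 0.479 with the first principal component removed, while Aldh6a1 had 0.248 and Mgst1 0.244. Cyp46a1 had a partial r of -0.413.

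With the oligodendrocyte score 10 were called (9.17%, background 18.3%). Sult4a1 led with 0.557, and had 0.531 in batch C, 0.553 in B and 0.606 in A. The largest negative values were those of Ugt2b5 (-0.412), a glucuronosyltransferase, and Sult1e1 (-0.377), which inactivates oestrogens. Both were weaker in batch C. Ugt2b5 had -0.0435 in batch C, -0.595 in B and -0.522 in A, and Sult1e1 had -0.183, -0.512 and -0.511 in the same order. With the microglia score 6 were called (background 12.4%), led by Gstp1 (0.38), the pi-class transferase, Aldh6a1 (-0.378) and Cyp2d22 (0.376).

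With the neuron score 32 were called, 16 each way (29.4%, background 39%). Gstm1 (0.724), Aldh3a2 (0.638), which oxidises fatty aldehydes, and Cyp39a1 (0.637) led. The r of Gstm1 was 0.249 in batch C, 0.833 in B and 0.834 in A, and 0.241 over all mice with the first principal component removed. Aldh3a2 had 0.178 in batch C, 0.762 in B and 0.778 in A. The dopamine neuron score called 19 members (17.4%, background 15.7%), led by Cyp2c23 (0.438). With the first principal component in the model that score called 0 members (background 1.08%).

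Vessel and ependymal scores gave 25 members for endothelium (background 25.9%), 23 for mural cells (24.7%) and 24 for ependyma (20.1%). Gstm1 led the first 2 lists, with 0.605 and 0.634. Sult5a1 (0.553), the mitochondrial aldehyde dehydrogenase Aldh2 (0.521) and Gstp3 (0.499) led the ependymal list, and their values were 0.516, 0.431 and 0.483 in batch C. The r of Cyp39a1 with the endothelial score was 0.0766 in batch C, 0.662 in B and 0.776 in A. The 34 marker relations named were picked as the strongest of each list on these same mice. Their permutation p of 1e-05 and their equal sign in each batch were therefore largely fixed by that choice and are given as a description. Scores of different lists shared mice and the main axis of variation, so these relations are not independent.

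**Figure D4:**
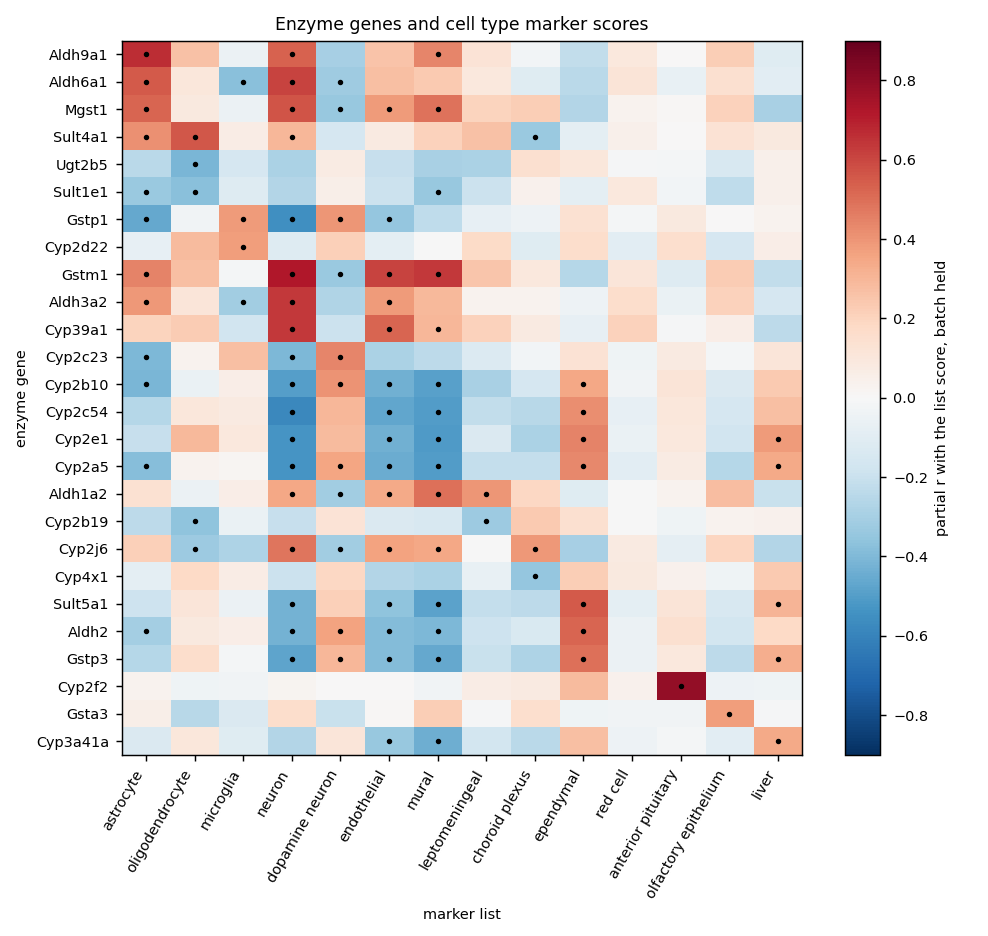
Partial r (colour) of 26 members (rows) with 14 marker list scores (columns), batch held in the model. Dots mark limma calls; Cyp2f2 is called for 1 list, the anterior pituitary, at 0.789, while Gstm1 and the Cyp2a5 row are called for several.

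Much of this covariation lay along 1 axis. The first principal component of batch-centred values, computed without the members, held 12.3% of the variance, and its r with the SD over probes of an array was -0.181. Of 109 members, 23 followed it with an r of at least 0.5 in size (21.1%), as did 21.6% of named genes. On one side were 10 members: Gstm1 (r 0.813), Aldh6a1 (0.754), Mgst1, Aldh9a1, Aldh3a2, Gsto1, Cyp39a1, Sult4a1, Gstm5 and Cyp7b1. On the other were 13: Cyp2b10, Cyp2a5 (-0.641), Gstp1 (-0.631), Cyp2c54, Gstt2, Aldh2, Cyp2c29, Ugt2b5, Cyp2b19, Cyp27b1, Gstp3, Cyp21a1 and Cyp2e1 (-0.509). The signs of a principal component are arbitrary.

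Within the first side the median pairwise r was 0.421, within the other 0.489, and across them -0.336. The glutathione transferases were split between the sides, with Gstm1, Gstm5 and Gsto1 on one and Gstp1, Gstp3 and Gstt2 on the other. Members on the same side were not always close: the r of Gstp1 and Gstp3 was 0.0685 over all mice, with -0.405 in batch C, 0.409 in B and 0.467 in A, and -0.381 with the principal component removed. Gstm1 and Gstp1 had an r of -0.458 over all mice, 0.00877 in batch C, -0.589 in B and -0.63 in A, so their opposition rested on batches B and A. Gstp1 itself correlated most closely with the neuronal ubiquitin ligase gene Trim3 (r 0.75) and Gstm1 with Anxa6 (0.84).

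**Figure D5:**
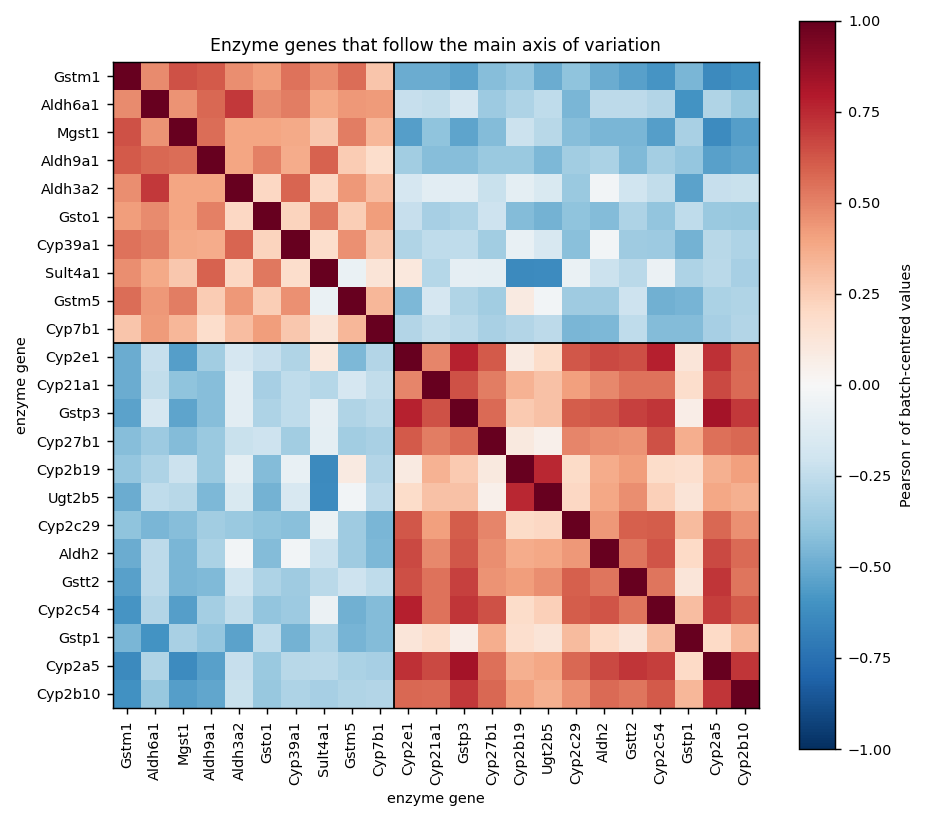
Pearson r (colour) between batch-centred values of the 23 members that followed the first principal component at 0.5 or more in size, over 292 mice. Lines separate the 10 members on one side from the 13 on the other, with positive values in most cells within a side and negative values in most cells across sides.

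Over all 5886 pairs of members the median r was 0.00579 and the median size 0.113, against 0.134 over all pairs of named genes. An r of at least 0.5 in size was seen in 149 pairs (2.53%), 124 positive and 25 negative, against 3.41% of all pairs of named genes. It was seen in 3.29% of pairs of the same family and 2.36% of pairs of different families. The members were thus no more often closely correlated than other genes.

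Apart from Cyp4f14 and Cyp4f15, the 10 closest pairs joined genes on different chromosomes. Gstp3 and Sult5a1, a pi-class transferase and a sulfotransferase, had an r of 0.836 (rho 0.742), with 0.862 in batch C, 0.748 in B and 0.874 in A. Gstp3 and Cyp2a5, the nicotine and coumarin hydroxylase of mouse, had an r of 0.834 (rho 0.795). Their absolute changes were small: the 5th and 95th percentiles lay 1.25-fold apart for Gstp3, 1.27-fold for Sult5a1 and 1.27-fold for Cyp2a5. With the first principal component removed, the r of the first pair was 0.781 and of the second 0.768. Cyp2e1 belonged to the same group, with 0.794 to Sult5a1, 0.772 to Gstp3 and 0.775 to Cyp2c54. Genes outside the set were as close, Gfra3 with an r of 0.901 to Gstp3 and Sfrp5 with 0.855 to Cyp2a5. The 3 printed promoters of this group shared no motif among those searched.

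Of the 10 closest pairs, 2 rested on few mice. Cyp2d9 and Sult2a1 had an r of 0.763 but a rho of 0.371, and r was 0.392 without the 2 mice farthest from the median. Sult1b1 and Sult2a1 had an r of 0.75, a rho of 0.339 and an r of 0.399 without those mice. The lowest values of all 3 genes, -0.899 for Cyp2d9, -0.952 for Sult1b1 and -1.7 for Sult2a1, came from the widest arrays. The other 8 pairs had an r of 0.739 or more without 2 mice. The 10 pairs were picked as the largest of 5886 on these same mice, so their r values are a description.

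A further 12 pairs, mostly of related enzymes, were chosen after their values were seen. The related aldehyde dehydrogenases Aldh1a1 and Aldh1a7 had an r of 0.676, with 0.644 in batch C, 0.709 in B and 0.721 in A. Gstm1 and Gstm5 had one of 0.557. Gstt1 and Gstt2 (0.28), Gsta2 and Gsta4 (0.2) and Mgst1 and Mgst2 (0.124) were weakly related. The r of Cyp2j11 and Cyp2j13 was 0.0161 (permutation p = 0.783). The r of Cyp1a1 and Cyp1a2, the genes best known as targets of the aryl hydrocarbon receptor, was 0.216 with a rho of 0.0626, and -0.0425 without 2 mice. Probes of close paralogs can bind each other's transcripts, and the probe sequences were not used here.

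For some members the most correlated genes lay on the same chromosome, often many genes away. Of the 108 members with a chromosome, 7 had at least 5 of their 10 most correlated genes on their own chromosome (6.48%, background 5.27%). For 5 of them, Cyp4f14, Cyp4f15, Cyp2j13, Mgst2 and Cyp11a1, all 10 were. The count is near the background, and the genes are described for what they show.

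Cyp4f14 and Cyp4f15, leukotriene and fatty acid hydroxylases on chromosome 17, moved as a pair. Cyp4f14 ran from -0.303 through -0.0244 to 0.19 in batch C, from -0.25 through -0.00218 to 0.174 in batch B and from -0.236 through -0.0119 to 0.163 in batch A. Cyp4f15 ran from -0.174 through 0.00123 to 0.195 in batch C, from -0.169 through -0.00196 to 0.127 in batch B and from -0.224 through -0.00274 to 0.104 in batch A. The batches covered nearly the same range for both. Their r was 0.798 (rho 0.799), with 0.789 in batch C, 0.771 in B and 0.841 in A, and 0.795 without 2 mice.

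Both were tied to the same genes of chromosome 17. Adgrf4, an adhesion receptor, had an r of 0.867 with Cyp4f14 and 0.691 with Cyp4f15, although 266 and 271 coding genes lay between its position and theirs in gene order. The histocompatibility gene H2-Bl had -0.834 and -0.662, and Decr2, a peroxisomal enzyme of fatty acid breakdown, 0.828 and 0.642. The third Cyp4f gene of large SD, Cyp4f16, had 1 of its 10 closest genes on chromosome 17, and its closest member was Cyp2a12 on another chromosome (r 0.728, rho 0.621).

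Cyp2j13, on chromosome 4, correlated most with Prkaa2, a catalytic subunit of the energy-sensing kinase AMPK (r -0.708), Ybx1 (0.666) and Insl5 (0.643), 51, 235 and 41 coding genes away. Mgst2, on chromosome 3, which can make leukotriene C4 in humans, correlated with Pex5l (0.583), Exosc9 (0.573) and 6430590A07Rik (0.563). Cyp11a1, on chromosome 9, which begins steroid synthesis from cholesterol, correlated with Nnmt (0.668), Bco2 (0.637) and Neo1 (-0.635), 119, 103 and 14 coding genes away. All of these r values had the same sign in each batch. Cyp2j11, on the same chromosome as Cyp2j13, had 0 of its 10 closest genes there. These correlations over 292 mice are descriptions, and no genotype was available to set beside them.

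Sult1a1 and Gsta2 were of an intermediate kind. Sult1a1, on chromosome 7, had 2 of 10 on its own chromosome, Insc (-0.633) and Itgad (0.613), but its closest gene was Plin4, a lipid droplet coat gene on chromosome 17 (0.749). Gsta2, on chromosome 9, had 3 of 10, among them Dppa5a, the next coding gene (-0.489). Aldh2, on chromosome 5, correlated most with Zfp768 (0.822) and Mpst (0.8005) on other chromosomes.

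The probe chosen mattered for several members. For the 17 members with several probes, the other probe of Gstm1 followed the chosen one with an r of 0.636 and the second probe of Cyp3a41a with 0.668, whereas those of Cyp2b13 (-0.216), Sult3a1 (-0.204), Sult2a1 (-0.0227) and Cyp4f16 (-0.00151) did not. The other probes of Ugt2b5 (-0.0133 and -0.0679), Cyp2j11 (0.154), Cyp2b19 (0.289) and Cyp21a1 (0.365) followed weakly or not at all. Statements on genes with several probes hold for the chosen probe.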

How the data were processed

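The deposited table, 1 column per array, holds the authors' values for 23574 probes on 292 two-colour arrays, read here as log10 of mouse over pool. Base, direction, background correction and normalization: not given in the sources used here; array medians ran from -0.00726 to 0.0133 and the SD over probes from 0.0437 to 0.199 (median 0.0677). Depth does not apply to arrays, and the number of mice limits the precision. No column was left unused (0).

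In total 0.0433% of values were missing. The 25 probes missing on over 5% of arrays were left out, 252 single gaps took the mean of their probe across all arrays, and 690 values lay at the limits of -2 or 2, which is 100-fold; 2 of these belonged to members. The platform annotation gave 1 gene for 13665 probes, several for 48 and none for 9861. Of the probes with a gene, 12645 matched the RefSeq gene table and 1002 kept the annotation's symbol; 108 members matched and Cyp11b1 did not. Batches were defined by shared missing probes. The mice are labelled as separate animals of 1 group.

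R 4.3.3 and its package limma 3.58.1 gave the linear models, and p-values were adjusted by Benjamini-Hochberg across all 23549 probes. Mixtures were fitted with mclust 6.1.1 and called for a BIC gain over 10, means over 3 SDs apart and at least 5% of mice per level. Correlations used numpy 2.4.6, pandas 2.3.3 and scipy 1.17.1 in Python 3.11.15, with 100000 permutations within batches, two-sided. A marker score was the mean of standardised values of the listed genes, leaving out members and the gene tested. On simulated data with 200 changed probes of 23549, limma recovered 100% against the pool, 88.5% for B minus A with 3 unchanged probes called, 95% for C and 100% for scores. The simulated probes were independent normal values with planted effects of fixed size, whereas the real probes are correlated. These rates are therefore not the sensitivity for the real effects.

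Genes named were a fixed list of brain P450, aldehyde dehydrogenase and conjugation genes where measured, the 12 of largest SD, the largest SD of each family, the 5 largest effects of each comparison, genes with discrete levels, the 3 leading genes of each marker list and the 10 closest pairs, with their 3 most correlated genes. Others named were chosen after their values were seen. The members and all lists were chosen with earlier results of these data known. Cyp19a1, Cyp27a1, Cyp2j9, Aldh5a1, Aldh7a1 and Mgst3 were not analysed here. Alternatives covered scaling, thresholds, single batches, probe choice, batch terms and ranks.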

Additional observations from a re-analysis of the deposited data

How the results depend on the processing

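No paired analysis was possible because all mice form 1 group. Against the pool, the count of 0 members became 3 in batch C alone and 66 without a fold threshold. The 2 members called between batches B and A became 0 at 1.2-fold. The 20 called for batch C became 59 without a fold threshold and 4 at 1.2-fold. The 17 called over mouse number became 26 in batch C alone and 59 with no batch term. There Cyp39a1 had a slope of 0.0109 (limma adjusted p = 0.338), Aldh1a1 one of 0.0425 (3.77e-12) and Gstm1 one of 0.0204 (2.59e-05); in batch C alone Gstm1 had 0.021 (0.03). The 172 marker calls became 287 in batch A, 287 in batch B, 388 at a partial r of 0.2, 71 at 0.4 and 70 with the first principal component added. The 8 members with discrete levels became 18 at means over 2 SDs apart, 0 at over 4, and 1 with unequal variances, a gene that was none of the 8. Scaling every array to the same spread gave 5, batch A alone gave 5 and batch B alone 3. The 149 close pairs became 300 in batch A, 264 in batch B and 83 with the first principal component removed. The cause was not tested. The shares of all probes or of all gene pairs under these settings are not given here. A change in a count can therefore not be read as particular to the members. For single genes, 42 marker values lost their call and 332 kept it, and among slopes 29 kept it, 2 lost it and the 4 given above reversed. Under the settings that refit single genes, the 25 values for batch C and 10 for batches B and A kept theirs. Where a gene has a single probe, averaging probes or keeping only probes with no missing value leaves its own values unchanged. Part of the kept calls was therefore fixed in advance. The fold thresholds were applied to counts only. Adding the principal component and leaving out the 3 widest arrays were chosen after seeing the data.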
